A study of Mus musculus with 13 samples.

Results

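The 75 cytosolic ribosomal protein genes were the protein-coding genes of the table whose name is Rpl or Rps with a number, or one of the stalk proteins Rplp0, Rplp1 and Rplp2, with at most a closing a or x. They are 75 of 43629 genes, 46 of the large and 29 of the small ribosomal subunit. RNA sequencing values were analysed for 13 mouse libraries, from 3 thymuses and 10 thymic lymphomas. The thymuses (WT thymus) came from wild-type C57BL/6 mice and serve as the reference in another comparison of the study too. The 5 Atm-/- lymphomas came from mice of the 129S6/SvEv strain that lack the DNA damage kinase ATM. The 5 Rag2c/c p53-/- lymphomas came from mice of mixed C57BL/6 and 129S6/SvEv background, which lack p53 and carry the core form of the V(D)J recombinase subunit RAG2 on both alleles, without its C-terminal end. No treatment, age or sex is given in the labels. Strain differed between all 3 groups, so strain and genotype cannot be told apart, and no library of a lymphoma-free 129S6/SvEv thymus was analysed here. The labels mark the thymus libraries as reused and do not say whether they were prepared or sequenced together with the lymphomas. Any difference between series thus also goes with the contrast of lymphoma and thymus, and no batch term could be fitted. Nothing in the labels says which lymphomas shared a mouse, so p-values measure the spread between these libraries. Values are counts of reads per gene, divided by the authors' size factor of each library and rounded, and are called normalized counts below.

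Each ribosome holds a single copy of nearly every ribosomal protein, the stalk proteins P1 and P2 being the known exception, and cells make the proteins in about equal amounts and degrade the excess. The mRNAs begin with a pyrimidine tract through which mTOR signalling controls their translation, and they are among the most abundant of dividing cells. Several of the genes are known outside translation: RPL5 and RPL11 bind MDM2 and so stabilise p53 when ribosome assembly fails, and RPL5, RPL10, RPL11 and RPL22 are mutated or deleted in human T cell leukemia. The mammalian genome also holds many intronless copies of these genes, made by reverse transcription of their mRNAs, and most are listed as pseudogenes.

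All 75 genes were above 0 in all 13 libraries, and all passed the filter on low values, which asked for 3 or more libraries at 10 or above. The number of reads counted on genes was estimated from the spacing of low values as 6.68 to 38.8 M (M for mega) for WT thymus, 9.24 to 23.6 M for Atm-/- lymphoma and 6.37 to 24.7 M for Rag2c/c p53-/- lymphoma. Depth below means this number, which is left after removal of duplicates and of reads without a single place. It is not the number of reads sequenced. WT thymus replicate 2, Atm-/- lymphoma replicates 2 and 4 and Rag2c/c p53-/- lymphoma replicate 2 were the 4 shallowest libraries. Atm was listed at 1559 to 2274 in WT thymus, at 208 to 732 in Atm-/- lymphoma and at 439 to 1315 in Rag2c/c p53-/- lymphoma. Trp53, the gene of p53, was still listed at 2018 to 5461 in Rag2c/c p53-/- lymphoma against 4387 to 6341 in WT thymus, and values per gene do not show which exons the reads came from. The 6 thymocyte markers summed to 77912 to 119617 in WT thymus, 41442 to 87620 in Atm-/- lymphoma and 56812 to 96804 in Rag2c/c p53-/- lymphoma. The 6 fibroblast markers summed to 204 to 218 in WT thymus, 3783 to 18172 in Atm-/- lymphoma and 642 to 2336 in Rag2c/c p53-/- lymphoma. The 6 myeloid markers summed to 3704 to 4178 in WT thymus, 7202 to 12047 in Atm-/- lymphoma and 4360 to 8897 in Rag2c/c p53-/- lymphoma, and the 6 B cell markers lay at 1446 to 1770, 103 to 272 and 92 to 506. The part of these cells in the values of the ribosomal protein genes was not tested, and in bulk RNA fewer cells of a type and less RNA per cell cannot be told apart.

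Genes of this family share long stretches of sequence with their copies, and read counts depend on them. Of the 75 genes, 73 had at least 1 copy in the table, and 633 copies were found in all, up to 57 for Rpl21. A copy was counted where at least 25% of its 20-base words occur in a transcript of the member. The median member had 41.9% of the 90-base windows of its lead transcript, the length of the shorter reads, present letter for letter in a transcript of another annotated gene.

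The pairs below are shown because their copies differed strongly between libraries, and were chosen with those values known. Each line is a 90-base stretch of the coding strand of the member and of its copy, 5′ to 3′, from GENCODE vM21 (GRCm38), with the bases that differ in capitals. Each stretch is the gap-free coding window with the most differences of its pair. Positions are counted from 1 at the first base of the member's start codon.

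Rplp0 (chr5:115559467-115563727, plus strand), coding bases 358 to 447, and Gm8730 (chr8:102865352-102865441, minus strand) differed at 3 bases of the stretch and at 12 of 951 coding bases in all:
Rplp0: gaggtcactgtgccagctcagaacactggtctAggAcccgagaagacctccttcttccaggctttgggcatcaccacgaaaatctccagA
Gm8730: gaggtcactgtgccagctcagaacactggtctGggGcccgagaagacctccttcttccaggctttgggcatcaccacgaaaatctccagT

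Rps13 (chr7:116331507-116334190, minus strand), coding bases 340 to 429, and Rps13-ps1 (chr8:87048059-87048148, plus strand) differed at 2 bases of the stretch, the same 2 by which they differ over 453 coding bases:
Rps13: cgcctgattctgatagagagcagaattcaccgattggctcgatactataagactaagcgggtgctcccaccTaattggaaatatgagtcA
Rps13-ps1: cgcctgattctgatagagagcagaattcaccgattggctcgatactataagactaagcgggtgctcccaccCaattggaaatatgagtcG

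Rpl34 (chr3:130726831-130730398, minus strand), coding bases 43 to 132, and Rpl34-ps1 (chr6:71124652-71124741, plus strand) differed at T132C, 1 of 2 differences over 351 coding bases:
Rpl34: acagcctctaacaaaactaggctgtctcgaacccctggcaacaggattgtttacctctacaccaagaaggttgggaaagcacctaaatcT
Rpl34-ps1: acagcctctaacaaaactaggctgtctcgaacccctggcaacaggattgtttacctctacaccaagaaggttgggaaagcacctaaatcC

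Rpl29 (chr9:106429454-106431568, plus strand), coding bases 1 to 90, and Gm8210 (chr1:43189156-43189245, plus strand) differed at C72A, 1 of 3 differences over 480 coding bases:
Rpl29: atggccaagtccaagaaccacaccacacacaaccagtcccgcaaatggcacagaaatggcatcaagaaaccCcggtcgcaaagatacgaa
Gm8210: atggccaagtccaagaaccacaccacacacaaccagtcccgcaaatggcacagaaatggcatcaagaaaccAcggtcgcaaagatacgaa

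Within such a stretch, 1 to 3 bases tell a 90-base read of the member from one of its copy. The authors kept only reads that mapped to a single place, and a read pair that matched both equally well was counted for neither.

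Between Atm-/- lymphoma and WT thymus, each of these 4 copies had a larger log2 fold change than any member. Gm8730, the copy of the stalk protein gene Rplp0, was listed at 136, 452 and 141 in WT thymus, at 5087, 10327, 6897, 8703 and 5301 in Atm-/- lymphoma, and at 3302, 760, 234, 431 and 2857 in Rag2c/c p53-/- lymphoma. All Atm-/- lymphomas were above all thymuses, and Rag2c/c p53-/- replicates 1 and 5 stood apart from replicates 2, 3 and 4. The log2 fold change against WT thymus was 5.08 (SE 0.74, adjusted p = 0.000169, limma) in Atm-/- lymphoma and 2.18 (SE 0.74, adjusted p = 0.0339) in Rag2c/c p53-/- lymphoma. The other copies Gm9625 and Gm14165 had the same order, with 1368 and 601 in Rag2c/c p53-/- replicate 1, 1271 and 512 in replicate 5, and 12 to 138 in replicates 2, 3 and 4.

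Rps13-ps1 was listed at 10, 10 and 6 in WT thymus and at 1140, 2464, 1802, 1816 and 1292 in Atm-/- lymphoma. In Rag2c/c p53-/- lymphoma it was listed at 10, 1418, 0, 16 and 13, so replicate 2 lay within the range of the Atm-/- lymphomas and the other 4 near that of the thymuses. The log2 fold change was 7.44 (SE 1.53, adjusted p = 0.00173, limma) for Atm-/- lymphoma against WT thymus. Another copy, Rps13-ps2, is identical to Rps13 over all 453 coding bases and went the other way. Its log2 fold change in the same comparison was -3.22, the lowest of the 94 tested pseudogenes named for a member. Rpl34-ps1 was listed at 57, 182 and 49 in WT thymus, at 406, 1361, 583, 895 and 449 in Atm-/- lymphoma, and at 25, 138, 62, 63 and 43 in Rag2c/c p53-/- lymphoma. It was higher in Atm-/- lymphoma than in WT thymus by 3.04 (SE 0.57, adjusted p = 0.000951) and than in Rag2c/c p53-/- lymphoma by 3.53 (SE 0.49, adjusted p = 0.000554) on the log2 scale. Gm8210, the copy of Rpl29, was at 7, 26 and 6 in WT thymus and at 517 to 957 in all 10 lymphomas, with log2 fold changes of 6.02 (SE 0.37, adjusted p = 2.57e-07) in Atm-/- and 5.77 (SE 0.37, adjusted p = 6.36e-07) in Rag2c/c p53-/- lymphoma.

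**Figure D1:**
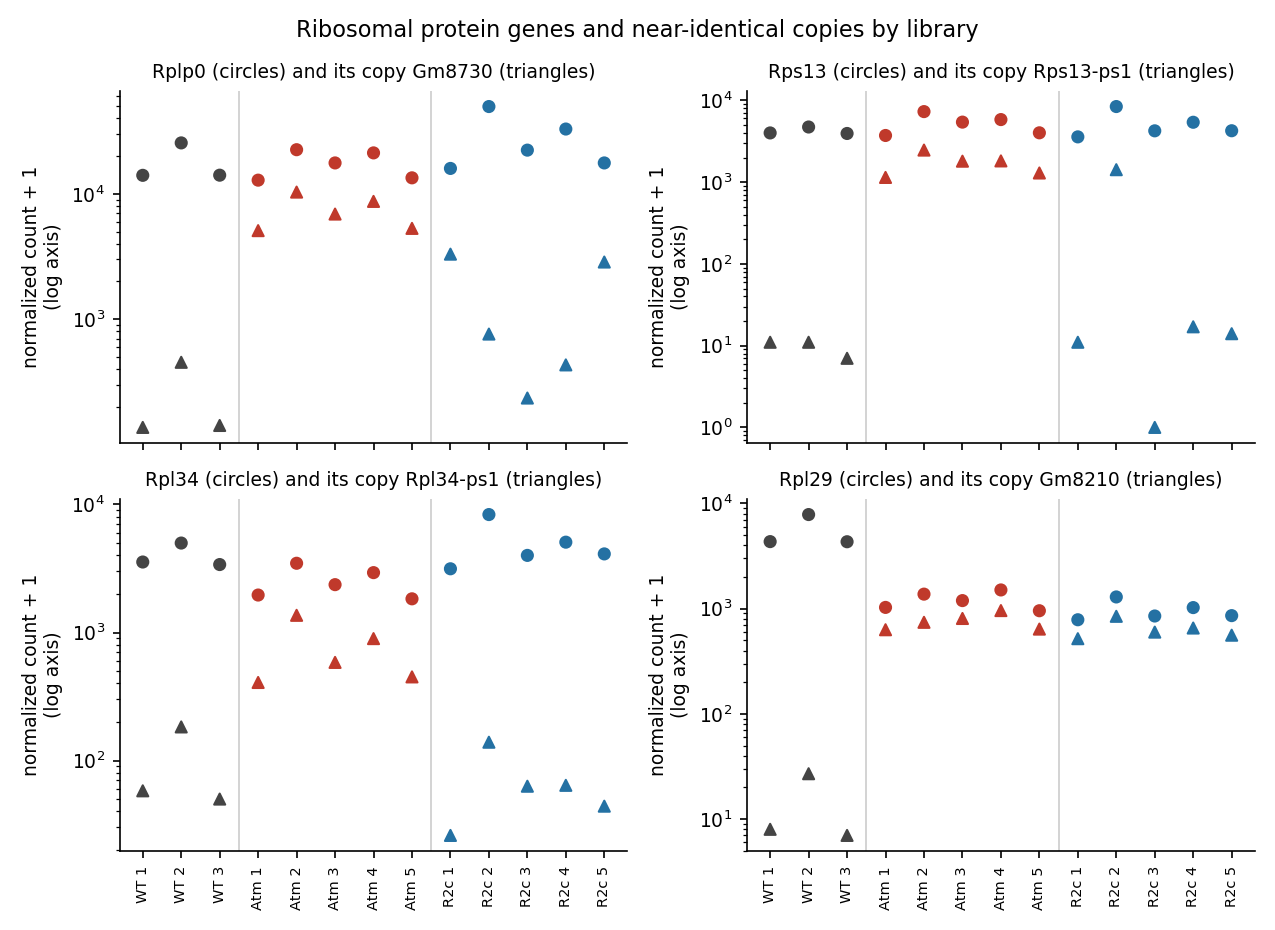
Normalized count plus 1 (log axis) of Rplp0, Rps13, Rpl34 and Rpl29 (circles) and of a copy of each (triangles) in the 3 WT thymuses, 5 Atm-/- lymphomas and 5 Rag2c/c p53-/- lymphomas (R2c), 1 point per library. Gm8730 is high in all Atm-/- lymphomas and in R2c 1 and 5, Rps13-ps1 in all Atm-/- lymphomas and R2c 2, Rpl34-ps1 in the Atm-/- lymphomas, and Gm8210 in all 10 lymphomas.

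Over all 633 copies, 267 passed the filter on low values. Against WT thymus, 89 rose and 4 fell in Atm-/- lymphoma (adjusted p under 0.05), where 21.0% of all 15872 tested genes rose and 23.6% fell. In Rag2c/c p53-/- lymphoma 29 rose and 4 fell, where 17.5% of all genes rose and 19.7% fell. The summed copies came to 1.96% to 3.33% of the summed members in WT thymus, to 4.58% to 7.08% in Atm-/- lymphoma and to 2.31% to 3.51% in Rag2c/c p53-/- lymphoma. The Atm-/- lymphomas did not overlap with the other groups. The groups also differ in strain, and the Rag2c/c p53-/- lymphomas, of mixed background, differed among themselves in Gm8730 and Rps13-ps1. Strain and genotype cannot be told apart in the values of the copies, and the part of strain was not tested.

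Rpl29, a large subunit protein, was the member with the largest change. It was listed at 4331, 7829 and 4319 in WT thymus, at 1026, 1372, 1191, 1504 and 954 in Atm-/- lymphoma and at 783, 1290, 850, 1022 and 857 in Rag2c/c p53-/- lymphoma. Every lymphoma was below every thymus. Rpl29 fell by 2.14 (SE 0.23, adjusted p = 2.03e-05, limma) in Atm-/- lymphoma and by 2.48 (SE 0.23, adjusted p = 1.25e-05) in Rag2c/c p53-/- lymphoma on the log2 scale, and passed the test under all 23 alternatives of each comparison. Its copies held 4.35% to 5.02% of the sum of member and copies in WT thymus and 43.6% to 49.2% in the 10 lymphomas. With the copies added, the sum was still lower, with log2 fold changes of -1.35 (SE 0.23, adjusted p = 0.000549) and -1.64 (SE 0.23, adjusted p = 0.000213). Read pairs that matched Rpl29 and a copy equally well are not in this sum. Of the 90-base windows of the Rpl29 lead transcript, 52.5% occur in a transcript of another annotated gene.

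Rpl34, also of the large subunit, was listed at 3552, 4996 and 3394 in WT thymus, at 1961, 3473, 2364, 2935 and 1832 in Atm-/- lymphoma and at 3145, 8342, 4001, 5076 and 4110 in Rag2c/c p53-/- lymphoma. It was lower in Atm-/- than in Rag2c/c p53-/- lymphoma by 0.93 (log2 fold change -0.93, SE 0.25, adjusted p = 0.0294), with overlapping groups, and the log2 fold change of Atm-/- lymphoma against WT thymus was -0.68 (SE 0.29, adjusted p = 0.0696). With its copies added the difference between the lymphomas was -0.58 (SE 0.27, adjusted p = 0.188).

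Rplp0 anchors the stalk of the large subunit, which binds elongation factors. It was listed at 14051, 25494 and 14090 in WT thymus, at 12860, 22503, 17646, 21220 and 13421 in Atm-/- lymphoma and at 15951, 49714, 22324, 32890 and 17643 in Rag2c/c p53-/- lymphoma. The log2 fold change against WT thymus was -0.01 (SE 0.35, adjusted p = 0.990) in Atm-/- and 0.56 (SE 0.35, adjusted p = 0.223) in Rag2c/c p53-/- lymphoma. The copies held 38.4% to 42.4% of the sum in Atm-/- lymphoma, 24.9% and 20.9% in Rag2c/c p53-/- replicates 1 and 5, and 1.202% to 2.05% in the other libraries. With copies added, the log2 fold changes were 0.71 (SE 0.32, adjusted p = 0.0821) and 0.70 (SE 0.32, adjusted p = 0.0954), close to the median of the members in Atm-/- lymphoma.

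Rps13, of the small subunit, was listed at 3934 to 4720 in WT thymus, with medians of 5417 in Atm-/- and 4249 in Rag2c/c p53-/- lymphoma. Its copies held 24.3% to 26.2% of the sum in Atm-/- lymphoma, 16.2% in Rag2c/c p53-/- replicate 2 and at most 3.18% elsewhere. With the copies added, its log2 fold change in Atm-/- lymphoma moved from 0.28 to 0.66 (SE 0.30, adjusted p = 0.0862). Copies also held 17.0% to 20.5% of the sum for Rpl15, 16.4% to 23.7% for Rps15a, 16.2% to 18.8% for Rps7 and 11.1% to 18.5% for Rpl11 in Atm-/- lymphoma, against 0.644% to 5.64% for these 4 genes in WT thymus. Adding the copies moved the log2 fold change by over 0.1 for 10 of 75 members in Atm-/- lymphoma against WT thymus and for 3 of 75 in Rag2c/c p53-/- lymphoma.

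The share of each library held by the 75 genes was 1.85%, 2.83% and 1.80% in WT thymus (2.16% ± 0.583, SD, n = 3). It was 2.63%, 4.64%, 3.54%, 3.97% and 2.67% in Atm-/- lymphoma (3.49% ± 0.863, SD, n = 5) and 2.06%, 5.01%, 2.38%, 3.17% and 2.48% in Rag2c/c p53-/- lymphoma (3.02% ± 1.18, SD, n = 5). The groups overlapped. Within each group the shallowest library had the highest share. WT thymus replicate 2 was the highest of its group for 74 of 75 members, Atm-/- lymphoma replicate 2 for 68 and Rag2c/c p53-/- lymphoma replicate 2 for 75. Between the shallowest and the deepest library the median member differed by 0.70, 0.94 and 1.099 on the log2 scale in the 3 groups, and the median of all tested genes by -0.07, 0.00 and -0.01. The WT thymus at 6.68 M reads had a share of 2.83% against 5.01% in the Rag2c/c p53-/- lymphoma at 6.37 M reads and 4.64% in the Atm-/- lymphoma at 9.24 M. Among libraries of over 20 M reads, shares were 1.80% and 1.85% in WT thymus, at 34.1 M and 38.8 M, and 2.06% to 2.67% in the lymphomas, at 20.7 to 24.7 M. Depth and group were thus not balanced, and the part of depth in these shares was not tested. Between 1 and 3 of the 75 genes were among the 100 highest of a WT thymus, between 4 and 23 in an Atm-/- lymphoma and between 2 and 25 in a Rag2c/c p53-/- lymphoma.

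**Figure D2:**
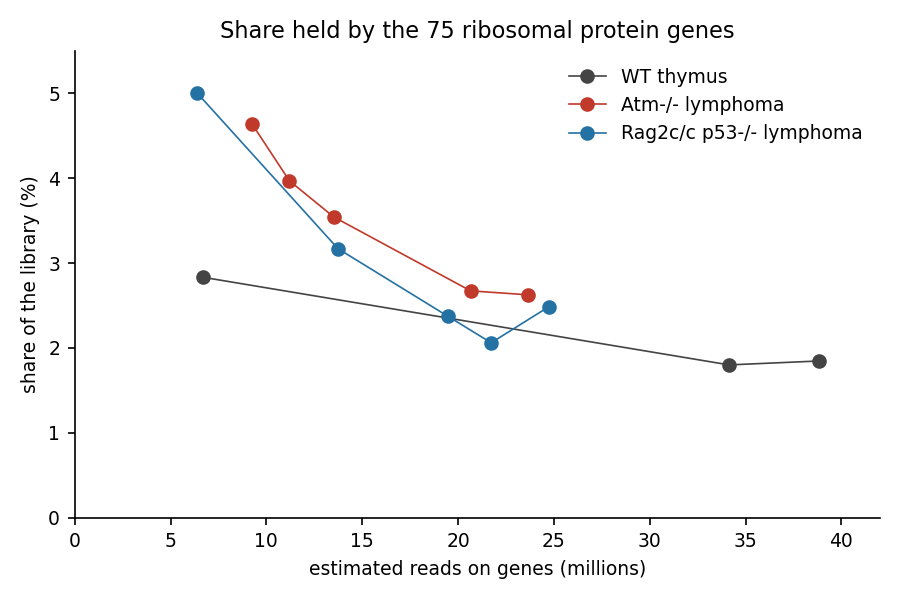
Share of each library held by the 75 ribosomal protein genes (%) against the estimated number of reads on genes (M reads), 1 point per library, with lines joining the libraries of a group. In each group the share is highest in the shallowest library, from 2.83% in WT thymus to 5.01% in Rag2c/c p53-/- lymphoma, and the shallowest libraries of both lymphoma groups lie above the shallowest WT thymus.

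The order of the levels among the members was close in all libraries of a group. Spearman's rho over the 75 genes was 0.929 to 0.998 between WT thymuses, 0.963 to 0.995 between Atm-/- lymphomas and 0.910 to 0.983 between Rag2c/c p53-/- lymphomas, a description across genes that share libraries. Normalized counts per kilobase of annotated exon were highest for Rplp1 and Rps15, a stalk and a small subunit protein. They were 15566 ± 5846 and 12219 ± 5900 in WT thymus (SD, n = 3), 22398 ± 7650 and 22436 ± 6597 in Atm-/- lymphoma (SD, n = 5), and 17367 ± 9478 and 19128 ± 11485 in Rag2c/c p53-/- lymphoma (SD, n = 5), differences within the spread. Over all libraries Rpl36, Rplp0 and Rpl8 followed. In WT thymus Rps15a, Rpl35a, Rps19, Rps28, Rpl22 and Rpl39 were low, with 715 to 1238 per kilobase. By the length of the lead transcript alone, Rplp1 and Rps15 were again the first and second in WT thymus, while Rps15a moved to rank 41, since its annotated exons add up to 6270 bases. The lowest level by either length was that of Rpl24 (chr16:55966275-55971435), listed at 3 to 23 in all libraries. Another annotated gene on the same strand, Gm28037, covers most of Rpl24 and was listed at 0 throughout, and reads in the shared exons can belong to either gene.

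Against WT thymus, 23 of the 75 members rose in Atm-/- lymphoma and 1, Rpl29, fell (adjusted p under 0.05), beside 21.0% and 23.6% of all tested genes, 44.6% in either direction. Of these, 5 rose and 1 fell at least 2-fold, beside 12.6% and 17.0% of all genes. The log2 fold change was above 0 for 71 members, with a median of 0.75 and quartiles of 0.53 and 0.87, where the median of all genes was -0.02. For 13 members every lymphoma was above every thymus, as for 23.4% of all genes. Median log2 fold changes were 0.72 for the large and 0.76 for the small subunit.

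The count changed with single libraries and with depth. It was 34 without WT thymus replicate 2, 2 without WT thymus replicate 1 or replicate 3, 12, 15 and 10 without Atm-/- lymphoma replicate 2, 3 or 4, and 48 without Rag2c/c p53-/- lymphoma replicate 2, which shares the estimate of the spread. The share of all genes that rose also moved, to 16.8% without WT thymus replicate 2, 15.3% and 14.8% without replicate 1 or 3, 21.2%, 18.8% and 18.8% without Atm-/- lymphoma replicate 2, 3 or 4, and 23.3% without Rag2c/c p53-/- lymphoma replicate 2. At least 2-fold, 25 rose without WT thymus replicate 2, 1 without WT thymus replicate 1 or 3, 15 and 11 without Atm-/- lymphoma replicate 1 or 5, and 2 without Atm-/- lymphoma replicate 2 or 4. The shares of all genes at least 2-fold in these fits are not given, so these counts are not read as results about the members. Without the 4 shallowest libraries the number that rose was 49 (20.3% of all genes), and with depth as a covariate 42 (21.7% of all genes), where the median log2 fold change was 0.51. On a scale set by the ribosomal protein genes themselves, 0 members rose, beside 4.95% of all genes, and 3 fell, Rpl29, Rpl34 and Rplp0. That scale moves the median of all genes from -0.02 to -0.75, so calls lost on it below only compare a member with the other members.

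Rps24, a small subunit protein whose gene is mutated in Diamond-Blackfan anemia, rose most. It was listed at 6032, 11860 and 6078 in WT thymus, at 14046, 20258, 26104, 21787 and 17762 in Atm-/- lymphoma and at 9047, 23489, 14158, 11388 and 10429 in Rag2c/c p53-/- lymphoma. All Atm-/- lymphomas were above all thymuses, with a log2 fold change of 1.37 (SE 0.31, adjusted p = 0.00326), which passed the test under 22 of 23 alternatives. The exception was the scale set by the members, with 0.64 (adjusted p = 0.0520).

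Among the other members that rose at least 2-fold were Rpl28 (log2 fold change 1.11, SE 0.38, adjusted p = 0.0285), Rpl8 (1.08, SE 0.33, adjusted p = 0.0173) and Rpl35 (1.03, SE 0.31, adjusted p = 0.0164), all of the large subunit. Rpl8 was listed at 7663 to 14277 in WT thymus and 15740 to 24531 in Atm-/- lymphoma, without overlap. Rpl28 and Rpl35 overlapped through WT thymus replicate 2, at 10298 and 5068. These 3 calls were lost without WT thymus replicate 1 (adjusted p = 0.0805 to 0.125) and without replicate 3 (0.0805 to 0.120), and that of Rpl28 also without Atm-/- lymphoma replicate 2 or 4 (0.0560 and 0.0573). On the scale set by the members all 3 were lost (0.145 to 0.252). Rps26 and Rpl41 had log2 fold changes of 1.01 (SE 0.40) and 1.004 (SE 0.40) with adjusted p of 0.0524 and 0.0563.

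**Figure D3:**
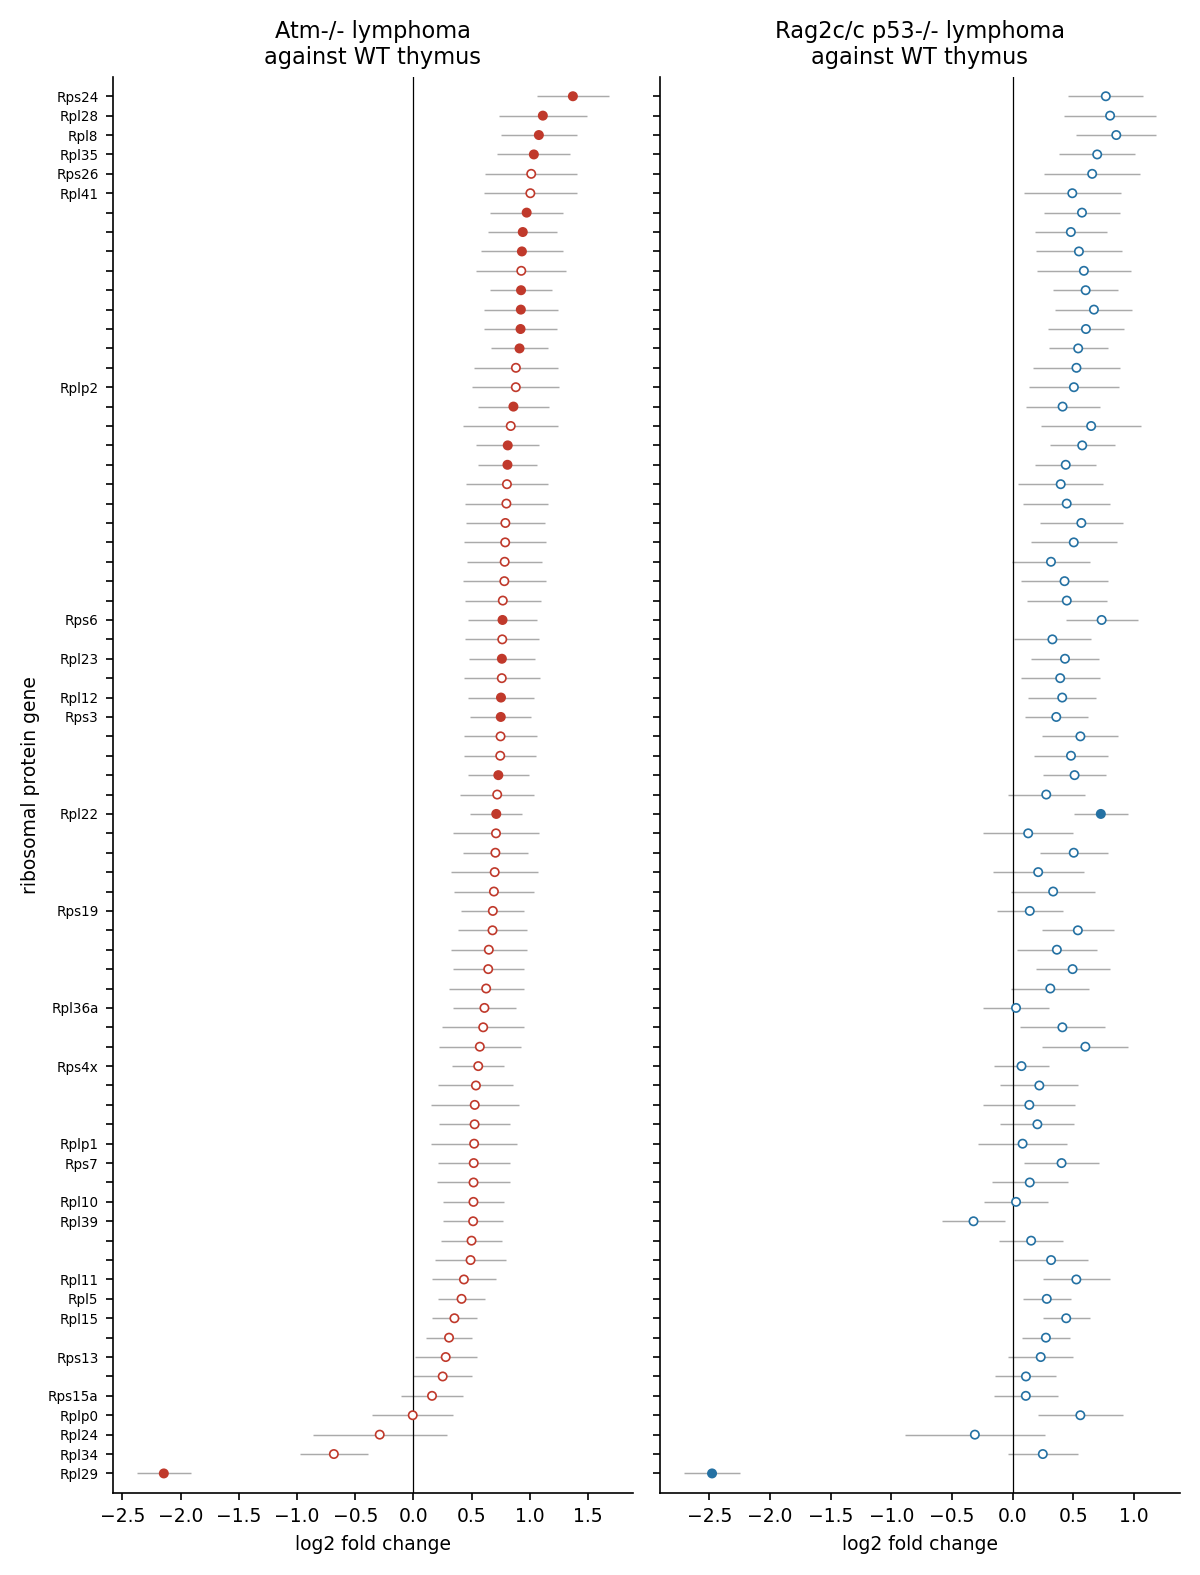
Log2 fold change of 72 of the 75 ribosomal protein genes against WT thymus in Atm-/- lymphoma (left) and Rag2c/c p53-/- lymphoma (right), with bars of 1 standard error. Filled points passed the test at an adjusted p under 0.05, 20 above 0 and Rpl29 below 0 on the left, Rpl22 and Rpl29 on the right, the 3 members not shown passed the test above 0 on the left and did not pass it on the right, and genes are in the order of the left panel, with labels for some of those described in the text.

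In Rag2c/c p53-/- lymphoma 1 member rose against WT thymus, Rpl22, and 1 fell, Rpl29, beside 17.5% and 19.7% of all genes, 37.3% in either direction. For 1 member, Rpl22, every lymphoma was above every thymus, as for 19.7% of all genes, and for 1, Rpl29, below, as for 24.2%. At least 2-fold, 0 members rose (limma, 10 with an unadjusted p under 0.05 in either direction) and Rpl29 fell, beside 9.77% and 13.9% of all genes. The log2 fold change was above 0 for 72 members, with a median of 0.44 against -0.02 over all genes. The number that rose was 9 without WT thymus replicate 2, 0 without WT thymus replicate 1 or 3, 4 and 2 without Rag2c/c p53-/- lymphoma replicate 1 or 3, 20 without the 4 shallowest libraries and 15 with depth as a covariate, while the share of all genes that rose in these fits was 11.6% to 18.4%. At least 2-fold, 5 rose without WT thymus replicate 2. The share of all genes at least 2-fold in that fit is not given, nor is that at the unadjusted p above. Without Rag2c/c p53-/- lymphoma replicate 2, the shallowest, the median was 0.22 and 58 members were above 0, and with depth as a covariate these were 0.23 and 61. This comparison and that of the Atm-/- lymphomas share the 3 thymuses, so their values are not independent.

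Rpl22 binds RNA at the exit of the peptide tunnel and is needed for the development of alpha-beta T cells, and the gene lies on chromosome 4. It was listed at 3362, 3914 and 3338 in WT thymus, at 4489, 7141, 6722, 6411 and 4661 in Atm-/- lymphoma and at 4888, 9423, 4855, 5614 and 5411 in Rag2c/c p53-/- lymphoma. All 10 lymphomas were above all thymuses, with log2 fold changes of 0.71 (SE 0.22, adjusted p = 0.0203) and 0.73 (SE 0.22, adjusted p = 0.0218). Both calls were lost without WT thymus replicate 1 (adjusted p = 0.0709 and 0.0765), without replicate 3 (0.0738 and 0.0801) and on the scale set by the members, where the log2 fold changes were -0.019 and 0.32. Its paralog Rpl22l1, which can take its place in the ribosome and is known to be repressed by Rpl22, was listed at 628, 494 and 586 in WT thymus, at 412, 1249, 349, 613 and 449 in Atm-/- lymphoma and at 111, 209, 283, 246 and 229 in Rag2c/c p53-/- lymphoma. It fell by 1.46 (SE 0.38, adjusted p = 0.00989) in Rag2c/c p53-/- lymphoma against WT thymus, and was higher by 1.41 (SE 0.33, adjusted p = 0.0159) in Atm-/- than in Rag2c/c p53-/- lymphoma. Its log2 fold change in Atm-/- lymphoma was -0.05 (SE 0.38, adjusted p = 0.930).

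Between the lymphomas, 1 member was higher in Atm-/- lymphoma, Rpl39, and 1 lower, Rpl34, beside 5.13% and 6.48% of all genes, and at least 2-fold there was 0 in either direction (limma, 6 members with an unadjusted p under 0.05), beside 3.51% of all genes higher and 4.33% lower, 7.84% in all. The share of all genes at that unadjusted p is not given. The groups did not overlap for 0 members in either direction, beside 3.85% of all genes with every Atm-/- lymphoma higher and 4.48% lower. The median log2 difference over the members was 0.32 against 0.02 over all genes, and 0.54 without Rag2c/c p53-/- lymphoma replicate 2, where 4 members were higher, beside 5.32% of all genes. Rpl39, at the exit of the peptide tunnel, was listed at 1753, 1852 and 1719 in WT thymus, at 1881, 3960, 2370, 3072 and 1916 in Atm-/- lymphoma and at 1013, 2020, 1212, 1653 and 1397 in Rag2c/c p53-/- lymphoma. It was higher in Atm-/- lymphoma by 0.84 (SE 0.22, adjusted p = 0.0285) on the log2 scale, with overlap only through the shallowest Rag2c/c p53-/- library. The call was lost without Atm-/- lymphoma replicate 4 (adjusted p = 0.0693), without Rag2c/c p53-/- lymphoma replicate 1, 3 or 5 (0.0548 to 0.0675), with only the 2 groups in the fit (0.0663) and on the scale set by the members (0.214). That of Rpl34 was lost without Atm-/- lymphoma replicate 1 or 5 (0.0721 and 0.0676), without Rag2c/c p53-/- lymphoma replicate 4 (0.0570) and with only the 2 groups in the fit (0.0578).

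Relative to the median member of the same library, the level of Rpl29 was -0.08 to 0.05 in WT thymus and -3.39 to -2.66 in the lymphomas (log2). That of Rpl34 was -1.94 to -1.73 in Atm-/- lymphoma, apart from -0.60 to -0.36 in WT thymus and -0.73 to -0.55 in Rag2c/c p53-/- lymphoma. Rplp0 lay at 0.88 to 1.04 in Atm-/- lymphoma, below all other libraries at 1.54 to 2.07. Rpl39 lay at -2.75 to -2.11 in Rag2c/c p53-/- lymphoma, below all Atm-/- lymphomas at -1.94 to -1.62. Rps24 lay at 0.73 to 1.52 in Atm-/- lymphoma and 0.40 to 0.65 in WT thymus. On the scale set by the members, Rpl34 differed between the lymphomas by -1.26 (SE 0.18, adjusted p = 0.000674) and Rplp0 by -0.89 (SE 0.16, adjusted p = 0.00440), and 0 members were higher. All these values are of the member alone, without its copies. In Atm-/- lymphoma copies held 38.4% to 42.4% of the sum of member and copies for Rplp0 and 18.3% to 29.2% for Rpl34. Within a group, the range of a member over the 5 lymphomas was 0.55 to 1.40 in Atm-/- and 0.72 to 2.06 in Rag2c/c p53-/- lymphoma on the log2 scale, and Rplp2 was among the 5 widest in both, at 1.40 and 1.74.

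**Figure D4:**
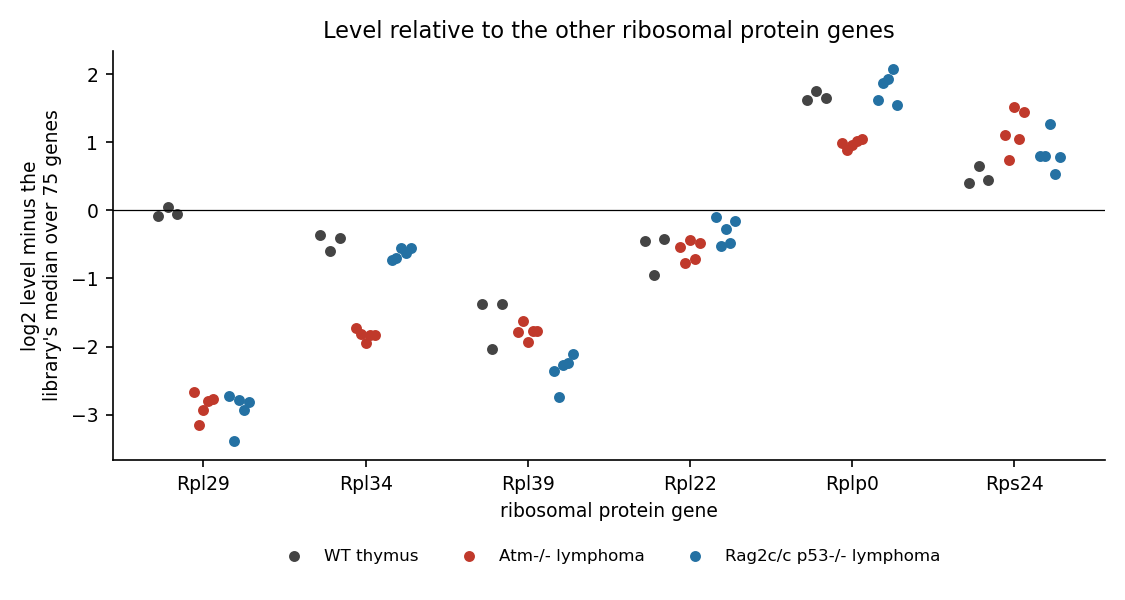
Log2 normalized count of 6 ribosomal protein genes minus the median of the 75 in the same library, 1 point per library, for WT thymus, Atm-/- lymphoma and Rag2c/c p53-/- lymphoma. Relative to that median, Rpl29 is low in all 10 lymphomas, Rpl34 and Rplp0 are low in Atm-/- lymphoma, and Rpl39 is lowest in Rag2c/c p53-/- lymphoma. Levels are of the member alone, without reads counted for its copies.

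By role, members rose in small numbers in Atm-/- lymphoma, where 21.0% of all tested genes rose, and counts in groups this small are not read as results about a role. Of the 4 stalk proteins, Rpl12 rose in Atm-/- lymphoma (log2 fold change 0.75, SE 0.28, adjusted p = 0.0432), while Rplp1, listed at 6074 to 11136 in WT thymus and 7514 to 16682 in Atm-/- lymphoma, had 0.52 (SE 0.37, adjusted p = 0.260) and Rplp2 had 0.88 (SE 0.37, adjusted p = 0.0690). Rpl5 and Rpl11, which join the 5S rRNA in a particle that can bind MDM2, had 0.41 (SE 0.20, adjusted p = 0.105) and 0.43 (SE 0.28, adjusted p = 0.217) in Atm-/- and 0.28 (SE 0.20) and 0.52 (SE 0.28) in Rag2c/c p53-/- lymphoma. Of the 7 proteins known to bind MDM2, Rpl23 and Rps3 rose in Atm-/- lymphoma, and Rpl23 had a log2 fold change of 0.76 (SE 0.28, adjusted p = 0.0432). The median over the 7 was 0.75, as over all members. Of the 8 proteins at the exit of the peptide tunnel Rpl22 and Rpl35 rose, and of the 19 known in Diamond-Blackfan anemia 3 rose, among them Rps24 and Rpl35. Rps19, the member most often mutated in that anemia, was listed at 4104 to 4671 in WT thymus and 5112 to 9963 in Atm-/- lymphoma, without overlap, with a log2 fold change of 0.68 (SE 0.27, adjusted p = 0.0550). Rps6, which is phosphorylated after mTOR activation, rose by 0.77 (SE 0.30, adjusted p = 0.0496) in Atm-/- lymphoma and had 0.73 (SE 0.30, adjusted p = 0.0663) in Rag2c/c p53-/- lymphoma. The call of Rps6 held under 11 of 23 alternatives and that of Rpl23 under 16 of 23. In Rag2c/c p53-/- lymphoma, Rpl22 alone of these groups rose. The summed large subunit genes were 1.62 to 1.64 times the summed small subunit genes in WT thymus, 1.49 to 1.58 times in Atm-/- lymphoma and 1.58 to 1.70 times in Rag2c/c p53-/- lymphoma, so the Atm-/- lymphomas lay below the thymuses, as normalized counts not corrected for length. Members with high counts, such as Rplp0 and Rps24, weigh most in these sums. The median log2 fold changes of the subunits in Atm-/- lymphoma, 0.72 and 0.76, were close.

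Values were also read by chromosome in Rag2c/c p53-/- lymphoma, as a description of small groups whose ranges partly overlap. The 4 members on the X chromosome, Rpl10, Rpl36a, Rpl39 and Rps4x, had log2 fold changes against WT thymus of -0.32 to 0.07, median 0.03, where the 505 other tested X-linked genes had a median of -0.43 and all members one of 0.44. Rpl10, which lies near the peptidyl transferase centre, was listed at 5667, 8940 and 5672 in WT thymus and at 4816, 10345, 5996, 7828 and 5891 in these lymphomas. Rps4x was listed at 8103 to 12007 in WT thymus and 7211 to 13749 in these lymphomas. In Atm-/- lymphoma the same 4 members had 0.51 to 0.61, below the median member of 0.75. The 5 members on chromosome 4, Rpl22 among them, had 0.49 to 0.73, median 0.73, in Rag2c/c p53-/- lymphoma, where the 1006 other genes of the chromosome had a median of 0.37. In Atm-/- lymphoma these 5 members had 0.43 to 0.88, median 0.71, where the other genes of the chromosome had a median of 0.09. The 4 members on chromosome 15 had a median of 0.47 in Rag2c/c p53-/- lymphoma against 0.39 for the other genes there, close to the median over all members. Values of members and of the other genes of a chromosome come from the same libraries, and no test was made across chromosomes.

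**Figure D5:**
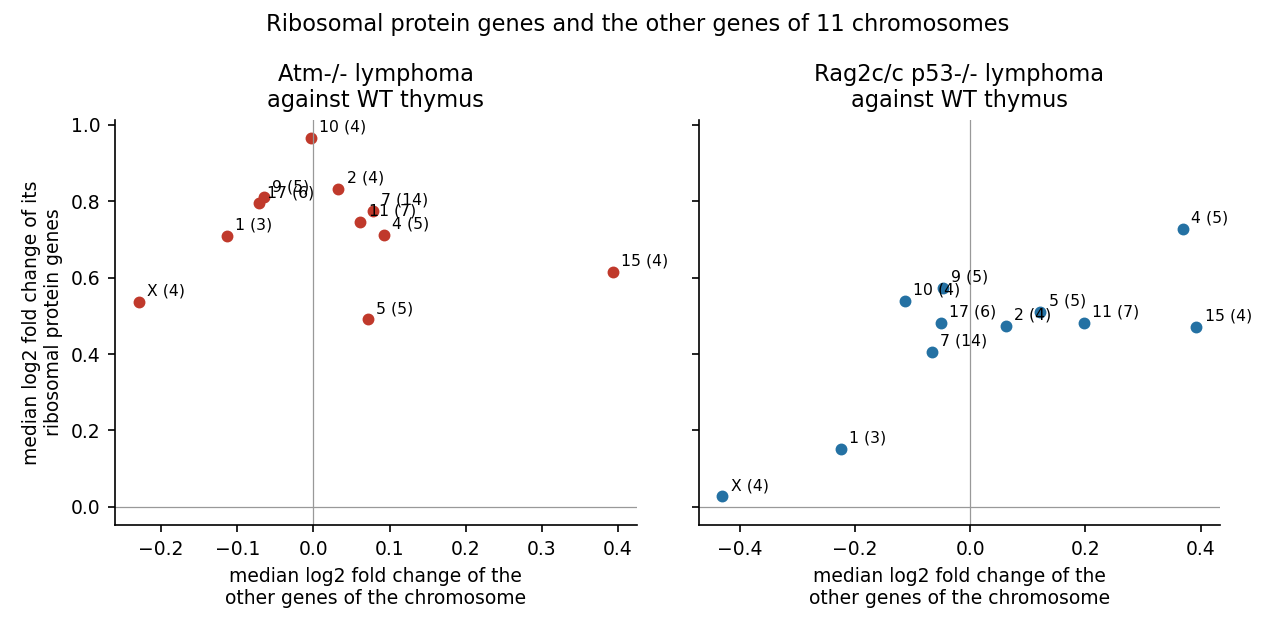
Median log2 fold change of the ribosomal protein genes of a chromosome against that of its other tested genes, in Atm-/- (left) and Rag2c/c p53-/- lymphoma (right) against WT thymus, for the 11 chromosomes with at least 3 members. Numbers in parentheses count the members, and on the right the X chromosome lies lowest and chromosome 4 highest on the vertical axis, at 0.03 and 0.73.

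Lists of related genes outside the family were counted beside a background of 21.0% of all tested genes that rose in Atm-/- and 17.5% in Rag2c/c p53-/- lymphoma. Of the 76 tested genes of the mitochondrial ribosome, which is built apart from the cytosolic one, 55 rose in Atm-/- lymphoma and 38 in Rag2c/c p53-/- lymphoma and 0 fell in either, with medians of 0.73 and 0.66. Of the 28 genes of ribosome biogenesis, 23 rose and 0 fell in Atm-/- lymphoma, and 21 rose and 1, Wdr12, fell in Rag2c/c p53-/- lymphoma, with medians of 0.95 and 0.80. Bop1, which matures large subunit rRNA, rose by 1.51 (SE 0.15, adjusted p = 8.86e-06) and 1.42 (SE 0.15, adjusted p = 2.64e-05) on the log2 scale. Nhp2, a subunit of the particle that guides pseudouridylation of rRNA, rose by 1.52 (SE 0.29, adjusted p = 0.00105) and 1.41 (SE 0.29, adjusted p = 0.00220). Of the 14 other translation genes with a pyrimidine tract, 11 rose in Atm-/- lymphoma and 4 in Rag2c/c p53-/- lymphoma, and their medians of 0.67 and 0.34 were near those of the ribosomal protein genes. The median SE was 0.31 over the members, 0.18 over the biogenesis genes and 0.34 over all tested genes in both comparisons with WT thymus. Of proteins of the ribosome that the naming rule leaves out, Gnb2l1 rose in Atm-/- lymphoma (0.82, SE 0.26, adjusted p = 0.0231), and Rpsa and Fau had 0.77 and 0.58 (SE 0.35 each, adjusted p = 0.0873 and 0.187). Of 8 tested paralogs, Rps27l and Rpl36al rose in Atm-/- lymphoma (0.91, SE 0.25, adjusted p = 0.00945 and 0.81, SE 0.25, adjusted p = 0.0174) and Rps4l fell. Of 6 markers of dividing cells, 4 rose in Atm-/- and 2 in Rag2c/c p53-/- lymphoma. Mki67, a marker of cycling cells that is among the 6, was lowest in replicate 2 of both lymphoma groups, at 8029 and 8585, the libraries with the highest share of ribosomal protein genes. Top2a, Ccnb1 and Bub1 were also lowest in both. Aurkb and Cdk1 were lowest in Atm-/- lymphoma replicate 2, at 2590 and 2213, but not in Rag2c/c p53-/- lymphoma replicate 2. There Aurkb was at 3935 and Cdk1, at 3222, was the highest of its group. The part of dividing cells in these values was not tested.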

How the data were processed

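RNA from 3 WT thymuses and 10 thymic lymphomas was sequenced from poly(A)-selected, stranded libraries as read pairs. Per the study's methods, the authors aligned with STAR 2.4.0g1 to GRCm38 with Ensembl release 78, removed duplicates with Picard, kept reads of mapping quality 255 and counted them per gene with HTSeq-count. These steps were stated for part of the libraries and are taken to hold for all, and the strand setting of the counting is not given in the sources used here. The deposited values are a score, namely counts divided by DESeq2 1.6.3 size factors and rounded by the authors, so they are not raw counts. Whole reads could not be recovered from them, and no count model was run. The table also holds the authors' fold changes and p-values against WT thymus, which were not used. Every per-sample column was mapped to a sample (0 were not).

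Tested were the 15872 of 43629 genes that reached 10 in 3 or more of the 13 libraries, on log2(value + 1), with limma 3.58.1 (R 4.3.3), a trend and robust moderation, all 3 groups in 1 fit and Benjamini-Hochberg adjustment over all tested genes. Fold changes are on that scale and understate changes of low genes. A change counted at least 2-fold has a log2 fold change of at least 1 in either direction. The fit was tested on simulated data. Column totals were 19788898 to 21591289, and reads counted on genes per library were estimated from the steps between low values. A copy is an annotated gene of GENCODE vM21 that shares at least 25% of its 20-base words with a member, and for added copies their values were summed with the member's before the fit. Such sums do not restore read pairs that were counted for neither gene.

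The members, lists and tests were chosen with earlier results of these data known. Named were the 6 highest and 6 lowest log2 fold changes of each comparison, called members, the highest and lowest levels, the widest ranges and a list of members of known roles. The copies, Rps13, Rps3, Rpl12 and members named for their copies or their chromosome were chosen after their values were seen. Results of some genes are not reported here. Alternatives were other scalings, pseudocounts, filters, fits and left-out libraries. Depth as a covariate, leaving out the 4 shallowest libraries, scaling on the members and adding copies were chosen after seeing the data.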

Additional observations from a re-analysis of the deposited data

Results flagged for a closer look

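In Rag2c/c p53-/- lymphoma, replicate 2, the shallowest library, stood apart above the other 4 for 9 ribosomal protein genes, with normalized counts of 13847 for Rpl11, 9423 for Rpl22, 13550 for Rpl23 and 21885 for Rpl32. The others were Rpl36 at 14695, Rpl8 at 35435, Rps15 at 24678, Rps27 at 9267 and Rps6 at 15134. The gap to the next library exceeded 0.71 of the group's range. Chance alone sets about 1 in 20 such groups apart, and 74 were checked, which are not independent since they share libraries. They cover the 37 named members, not all 75, and some of those were named for wide ranges. Replicate 2 was the highest of its group for all 75 members. The share of all tested genes that this rule sets apart is not given.

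The effect against WT thymus differed between the lymphomas for Rpl34, with a log2 difference of -0.93 (Atm-/- minus Rag2c/c p53-/-), and for Rpl39, with 0.84. With its copies added, that of Rpl34 was -0.58 and no longer passed the test.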

How the results depend on the processing

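No paired analysis was made, because the groups are separate genotypes and nothing in the labels pairs their libraries.

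Of the 75 members, the number that rose in Atm-/- lymphoma against WT thymus (23) was 41 with only the 2 groups in the fit, 68 with library quality weights, 42 with depth as a covariate, 49 without the 4 shallowest libraries, 0 on the scale set by the members and 46 with copies added and depth as a covariate, and the number that fell (1) was 2, 3, 2, 2, 3 and 2. In the same order of fits, 23.2%, 33.3%, 21.7%, 20.3%, 4.95% and 21.5% of all tested genes rose, against 21.0%. Of all tested genes 4116, 5840, 3632, 3612, 4743 and 3628 fell, against 3745. At least 2-fold, 9 rose with weights, 1 with depth, 9 without the 4 shallowest, 0 on the members' scale and 1 with copies and depth, against 5, and 2 fell with weights and on the members' scale. In Rag2c/c p53-/- lymphoma, 5 rose with equal column totals, 44 with weights, 15 with depth, 20 without the 4 shallowest, 0 on the members' scale and 14 with copies and depth, against 1, and with weights 3 fell, 2 of them at least 2-fold. In the same order of fits, 17.7%, 28.7%, 18.4%, 16.8%, 4.17% and 18.5% of all tested genes rose, against 17.5%. Between the lymphomas, the number higher in Atm-/- was 0 with only the 2 groups, 8 with depth, 0 on the members' scale and 8 with copies and depth, and the number lower was 0 with only the 2 groups, 2 with depth, 2 on the members' scale (1 at least 2-fold) and 0 with copies added. The share of all genes higher in Atm-/- was 2.92% with only the 2 groups, 6.27% with depth and 1.31% on the members' scale. It was 6.13% with copies and depth, against 5.13%.

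Leaving out 1 library of the groups compared gave 2 to 34 that rose and 1 to 2 that fell in Atm-/- lymphoma (1 to 25 rose at least 2-fold), 0 to 9 that rose in Rag2c/c p53-/- lymphoma (0 to 5 at least 2-fold), and 0 to 4 higher and 0 to 1 lower between the lymphomas (0 to 1 lower at least 2-fold). Shares of all genes at least 2-fold are not given for these fits or for the alternatives above. Rpl22 had -0.019 in Atm-/- lymphoma on the members' scale. That scale sets a member near the members' median close to 0 by construction and says nothing of its stability. In the same comparison Rplp0, close to 0 in the main fit at -0.01, had 0.71 with copies added. It had 0.46 with copies added and depth as a covariate. The causes were not tested. The shares of the libraries moved by less than 1 SD under every alternative run. Precision is limited by 3 thymuses and by depths of 6.37 to 38.8 M reads.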
